A study of Rattus norvegicus with 12 samples.

Results

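The genes that encode the chains of collagens were described across rat cells labelled PC12 after a loss and return of oxygen and glucose (oxygen-glucose deprivation and reoxygenation, OGDR). The members were the rows of the count table whose gene symbol is Col, a type number, a and a chain number, which gave 44 of 30454 genes. They were grouped as 11 fibrillar chains, 6 chains of type 4, 6 chains of type 6 and 21 other chains, by their symbols alone. The rTMS_MSC group received mesenchymal stem cells together with repetitive transcranial magnetic stimulation (rTMS) at 10 Hz, the MSC group had the stem cells without stimulation, and the OGDR group had the deprivation and reoxygenation with neither. Each group held 4 bulk RNA sequencing libraries taken at 48 h after treatment. All 3 groups share the deprivation, and groups without it or with stimulation alone were not analysed here. Nothing in the labels tells whether samples of 1 group came from different cultures, and the p-values cover only the spread among these samples, which may be technical. The species of the stem cells, and whether they touched or were removed from the cells sequenced, are not stated in the labels.

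Collagens are secreted proteins in which 3 chains wind into a triple helix, and each chain is the product of its own gene. Fibrillar collagens assemble into the banded fibres of connective tissue and of the nerve sheath. Type 4 chains form the flexible network of basement membranes, and type 6 chains form beaded microfilaments that lie between the basement membrane and the surrounding matrix. The remaining types coat fibrils, anchor epithelia, build short-chain networks or sit in the cell membrane. PC12 is a line from a rat adrenal medulla tumour, whose cells resemble chromaffin cells and extend neurites with nerve growth factor.

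Each library held 18246250 to 20471838 counts in genes. The first principal component (33.7% of the variance) separated OGDR from the other 2 groups, and on the second (18.1%) MSC replicate 3 and rTMS_MSC replicate 3 lay at opposite ends. Results are therefore also given without those 2 libraries where that changes them. Of 14 markers of chromaffin cells, 3 reached 1 CPM (counts scaled to a common library total, by TMM), and Ddc and Hand2 were among those with no count. Of 14 stromal markers 9 reached 1 CPM and of 10 Schwann and glial markers 8 did, so the expressed markers went against the label. The libraries are called by their label here. The summed level of the chromaffin markers was 210.5 to 227 CPM in rTMS_MSC, 199 to 246 CPM in MSC and 284 to 351 CPM in OGDR. Most of that sum was Scg2, a granule protein, at 207 ± 6.73 CPM in rTMS_MSC, 203 ± 19.1 CPM in MSC and 293 ± 29.9 CPM in OGDR (SD, n = 4 each), and of the 7 markers tested Th, the enzyme that makes the catecholamine precursor, rose (2.13 ± 0.629 log2, adjusted p = 0.0195, under 1 CPM on average) and Scg2 fell (-0.53 ± 0.0707 log2, adjusted p = 1.03e-05) in MSC against OGDR. Stromal markers summed to 1006 to 1175 CPM in rTMS_MSC, 1174 to 1269 CPM in MSC and 1231 to 1323 CPM in OGDR. Of these markers, Lum had no count and Dcn had 1 count in all libraries together, so the stromal list was not expressed as a whole. Schwann and glial markers summed to 1058 to 1162 CPM in rTMS_MSC, 1084 to 1155 CPM in MSC and 928 to 1008 CPM in OGDR. Macrophage markers summed to 2.51 to 3.95 CPM in rTMS_MSC, 2.32 to 3.13 CPM in MSC and 2.56 to 4.63 CPM in OGDR, with Adgre1 and C1qa at 0. Endothelial markers summed to 84.3 to 93.8 CPM in rTMS_MSC, 89.6 to 96.8 CPM in MSC and 88.1 to 102 CPM in OGDR, with Kdr at 0. Their part in the collagen results was not tested.

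Of the 44 members, 31 had enough counts to be tested: 10 of 11 fibrillar chains, 2 of 6 type 4 chains, 4 of 6 type 6 chains and 15 of 21 other chains. The 13 members left out by the filter on low counts were Col24a1 of the fibrillar class, Col4a3, Col4a4, Col4a5 and Col4a6 of type 4, Col6a4 and Col6a5 of type 6, and Col8a2, Col13a1, Col19a1, Col23a1, Col25a1 and Col26a1 of the others. Col26a1 had no count in any library, which allows up to 0.0127 CPM over the 235439302 counts of all libraries (3 counts, counting error only). Over all libraries, 16 members averaged at least 10 CPM and 19 averaged under 1 CPM. Of the 31 tested, 24 were over the filter level of 0.509 CPM in every library. The other 7 were Col1a2, Col2a1, Col3a1, Col11a1, Col9a1, Col10a1 and Col28a1. Col3a1 was over it in 3 libraries of rTMS_MSC, 4 of MSC and 0 of OGDR. For Col9a1 these numbers were 4, 3 and 1, for Col10a1 4, 2 and 1, and for Col2a1 4, 4 and 3. For Col11a1 they were 2, 3 and 1, for Col1a2 1, 3 and 0, and for Col28a1 3, 1 and 1. Col3a1, Col9a1, Col10a1 and Col11a1 thus entered the test through the groups where they were high, and Col1a2 with 0 OGDR libraries over the level. All 7 count among the tested members in the totals against OGDR below, and no total without them is given.

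Chains of type 6, type 4 and type 5 were among the collagen genes that were higher in both groups with stem cells than in OGDR, and a few chains were lower with stimulation than without it. In MSC against OGDR, 15 of 31 tested members rose and 4 fell by the edgeR quasi-likelihood (QL) test with a Benjamini-Hochberg adjusted p under 0.05. That is 61.3% of the tested members, and the rises include Col2a1 and Col3a1, which were not over the filter level in every OGDR library. Over all 13692 genes tested, 20.2% were called in that comparison, 11.6% higher and 8.63% lower. In rTMS_MSC against OGDR, 15 rose and 3 fell (58.1% of the tested members), where 32.4% of all genes were called, 16.2% in each direction. The share of members that fell there was thus not above that of all genes. Its rises include Col2a1, Col3a1 and Col9a1, none of them over the filter level in every OGDR library. In rTMS_MSC against MSC, 4 members fell, and 18.1% of all genes were called, 7.14% higher and 10.9% lower. No member rose in that comparison by edgeR, DESeq2 or limma voom, and 1 was higher at an unadjusted p under 0.05. These 4 are 12.9% of the tested members, close to the background of lower genes. Of the 4, Col12a1 and Col8a1 also passed without MSC replicate 3 and rTMS_MSC replicate 3, a fit in which 154 genes of 13808 rose and 523 fell. The counts against OGDR without these libraries were 19 for MSC and 19 for rTMS_MSC. Fold changes are given on the log2 scale with their standard errors. In bulk samples fewer cells of a type and less RNA per cell cannot be told apart.

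The comparisons share groups and are not independent of each other, so their values are given side by side. The median log2 fold change of the 31 members was -0.06 for rTMS_MSC over MSC, 0.56 for MSC over OGDR and 0.29 for rTMS_MSC over OGDR, while over all genes tested the medians were 0.0152 for rTMS_MSC over MSC, -0.00212 for MSC over OGDR and 0.00801 for rTMS_MSC over OGDR. The 4 libraries of each group did not overlap in the MSC against OGDR comparison for 14 members that were higher (13.2% of all genes) and 4 that were lower (11.5%). For rTMS_MSC against OGDR this held for 11 higher (15.5%) and 3 lower members (14.8%). For rTMS_MSC against MSC it held for no higher member (8.25% of all genes) and for 8 lower members (10.8%), namely Col4a1, Col4a2, Col5a1, Col5a2, Col8a1, Col12a1, Col17a1 and Col22a1.

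**Figure D1:**
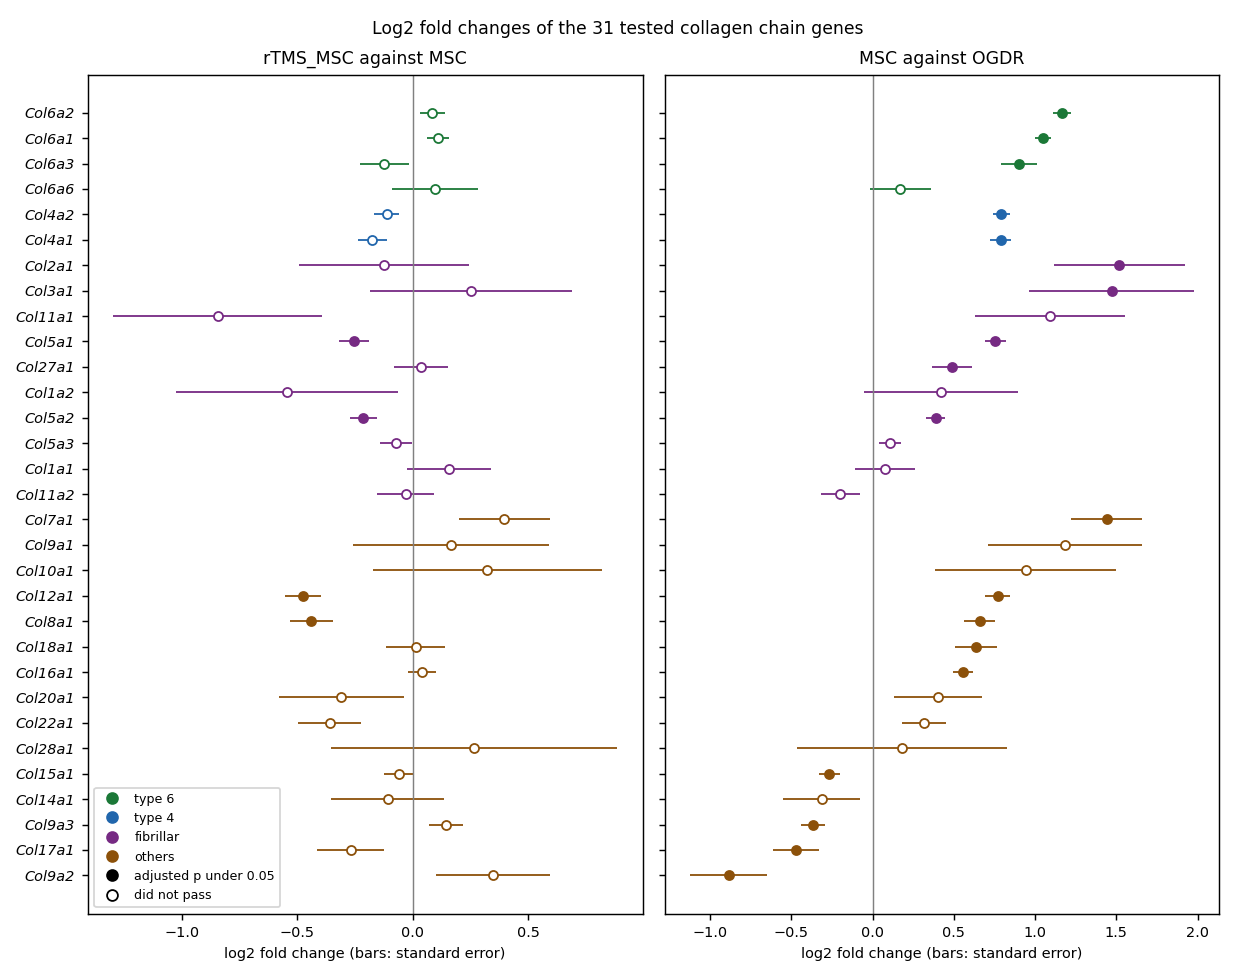
Log2 fold changes of the 31 tested collagen chain genes, in rTMS_MSC over MSC and in MSC over OGDR, with standard errors as bars, filled points for adjusted p under 0.05 (edgeR QL test) and colours for the 4 classes. In MSC over OGDR 15 filled points lie to the right of 0 and 4 to its left, and in rTMS_MSC over MSC 4 filled points lie to the left of 0.

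Type 6 collagen showed a rise of 3 chains over OGDR. Its basic unit holds the Col6a1 and Col6a2 chains with another chain, classically Col6a3. Of the 4 tested chains, Col6a1, Col6a2 and Col6a3 rose in MSC and in rTMS_MSC against OGDR, and Col6a6 did not pass in either. The median log2 fold change of the 4 was 0.97 in MSC and 0.97 in rTMS_MSC over OGDR. No type 6 chain passed in rTMS_MSC against MSC by edgeR, DESeq2 or limma voom, where 1 of 4 was higher at an unadjusted p under 0.05.

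Col6a1, a chain that every type 6 unit contains, had 1286, 1281, 1277 and 1177 CPM in rTMS_MSC, 1211, 1200.4, 1117 and 1128 CPM in MSC and 578, 578, 554 and 545 CPM in OGDR. Every library with stem cells lay above every OGDR library, and the rTMS_MSC and MSC libraries overlapped. Its log2 fold change was 1.05 ± 0.0481, adjusted p = 1.68e-12 for MSC over OGDR, a fold of 2.07. It was 1.16 ± 0.0482, adjusted p = 3.53e-13 for rTMS_MSC over OGDR and 0.11 ± 0.0475 log2, adjusted p = 0.112 for rTMS_MSC over MSC. Without rTMS_MSC replicate 4, the lowest of its group, the last of these passed (0.14, adjusted p = 0.0461).

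Col6a2, the partner chain, had 1438, 1467, 1551 and 1329 CPM in rTMS_MSC, 1384, 1456, 1309 and 1304 CPM in MSC and 635, 636, 572 and 587 CPM in OGDR. The OGDR libraries again stood apart below all others. The log2 fold change was 1.17 ± 0.0563, adjusted p = 3.17e-12 for MSC over OGDR and 1.25 ± 0.0564, adjusted p = 1.18e-12 for rTMS_MSC over OGDR. In rTMS_MSC over MSC it was 0.08 ± 0.0554, adjusted p = 0.292.
Col6a3, the long partner chain, had 14.1, 15.4, 11.98 and 13.2 CPM in rTMS_MSC, 15.01, 14.1, 16.1 and 14.5 CPM in MSC and 8.38, 7.94, 7.43 and 8.16 CPM in OGDR. Its groups with stem cells did not overlap with OGDR and overlapped with each other. The log2 fold change was 0.90 ± 0.1099, adjusted p = 3.30e-06 for MSC over OGDR and 0.78 ± 0.1102, adjusted p = 1.90e-05 for rTMS_MSC over OGDR. Col6a6, a chain that can take the third place in some tissues, averaged 5.49 ± 1.26 CPM in rTMS_MSC, 5.13 ± 0.712 CPM in MSC and 4.56 ± 0.717 CPM in OGDR (SD, n = 4 each), with overlap throughout. Col6a4 and Col6a5, the other alternative partners, had 9 and 24 counts in all libraries together.

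The promoters of Col6a1 and Col6a3 are shown because their genes both rose against OGDR. RefSeq windows from 250 bases before to 50 after the annotated start were available for 35 of the 44 members (build GRCr8, not the build of the counts). The Col6a1 window is chr20:11905440-11905739 on the plus strand and the Col6a3 window is chr9:98886909-98887208 on the minus strand. Matches on both strands to the GC box GGGCGG, the CCAAT box CCAAT and the TATA box TATAAA are in capitals, and no matches overlapped.
Col6a1: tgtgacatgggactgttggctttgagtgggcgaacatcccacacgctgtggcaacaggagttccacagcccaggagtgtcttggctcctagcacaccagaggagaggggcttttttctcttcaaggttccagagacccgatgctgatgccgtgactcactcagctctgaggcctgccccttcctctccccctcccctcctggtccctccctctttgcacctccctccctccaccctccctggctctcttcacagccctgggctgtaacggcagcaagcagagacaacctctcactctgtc
Col6a3: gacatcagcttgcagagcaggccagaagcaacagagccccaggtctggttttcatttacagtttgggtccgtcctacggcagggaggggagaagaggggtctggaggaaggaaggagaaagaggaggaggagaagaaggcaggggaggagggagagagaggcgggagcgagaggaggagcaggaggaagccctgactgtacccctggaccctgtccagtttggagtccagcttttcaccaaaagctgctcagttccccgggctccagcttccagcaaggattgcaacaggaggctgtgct
Neither window held a match to any of the 3 motifs, which says only that these letters are absent from these 300 bases. In all 33469 RefSeq windows the shares with a match were 33.1% for the GC box, 37.5% for the CCAAT box and 14.2% for the TATA box. Of the 35 members, 19 (54.3%) had a GC box, 11 (31.4%) a CCAAT box and 4 (11.4%) a TATA box. A member was counted once if any of its windows matched (38 windows in all), whereas the shares over all windows are per window. A match is only a match of letters. In the GRCr8 annotation Col6a1 and Col6a2 are neighbours among protein-coding genes, as are Col6a6, Col6a5 and Col6a4.

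Type 4 collagen was represented by its basement membrane pair. The common network unit holds Col4a1 and Col4a2 chains, and both rose in MSC and in rTMS_MSC against OGDR by nearly the same log2 fold change. Neither passed in rTMS_MSC against MSC by the edgeR QL test, although both were lower at an unadjusted p under 0.05 and 1 of them passed by DESeq2 and by limma voom. The chains of specialised membranes such as the kidney filter and the eye, Col4a3, Col4a4 and Col4a5, had 2, 8 and 1 counts in all libraries together. Col4a6, a chain of smooth muscle and skin membranes, had 20.

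Col4a1 had 68.02, 65.3, 64.6 and 65.6 CPM in rTMS_MSC, 78.8, 73.2, 76.4 and 69.5 CPM in MSC and 42.5, 41.9, 45.6 and 42.5 CPM in OGDR. No group overlapped with another: MSC was highest, rTMS_MSC lay between and OGDR was lowest. The log2 fold change was 0.79 ± 0.0637, adjusted p = 9.42e-09 for MSC over OGDR and 0.61 ± 0.0637, adjusted p = 3.50e-07 for rTMS_MSC over OGDR. For rTMS_MSC over MSC it was -0.18 ± 0.0626, adjusted p = 0.0550. That last value passed by DESeq2 (adjusted p = 0.0245), by limma voom (adjusted p = 0.0299) and without MSC replicate 4 (adjusted p = 0.0362).
Col4a2 had 186, 183, 184 and 181 CPM in rTMS_MSC, 202, 199, 202 and 190.1 CPM in MSC and 124, 118, 109 and 107 CPM in OGDR. Its groups stood in the same order, again with no overlap. The log2 fold change was 0.79 ± 0.0544, adjusted p = 8.35e-10 for MSC over OGDR, 0.68 ± 0.0544, adjusted p = 8.29e-09 for rTMS_MSC over OGDR and -0.11 ± 0.0537, adjusted p = 0.143 for rTMS_MSC over MSC.

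Col4a1 and Col4a2 are transcribed in opposite directions from 1 shared stretch, known in human and mouse as a common promoter, so their windows are shown. The Col4a1 window is chr16:84885347-84885646 on the plus strand and the Col4a2 window is chr16:84885471-84885770 on the minus strand (GRCr8). The starts lie 77 bases apart, and 176 bases belong to both windows, read on opposite strands. Capitals mark the same 3 motifs.
Col4a1: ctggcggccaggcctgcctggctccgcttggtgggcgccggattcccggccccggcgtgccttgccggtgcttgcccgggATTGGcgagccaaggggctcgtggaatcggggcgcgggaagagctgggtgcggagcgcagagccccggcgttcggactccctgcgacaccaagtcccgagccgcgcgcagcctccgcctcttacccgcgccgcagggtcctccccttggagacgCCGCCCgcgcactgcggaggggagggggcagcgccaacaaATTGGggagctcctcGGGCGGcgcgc
Col4a2: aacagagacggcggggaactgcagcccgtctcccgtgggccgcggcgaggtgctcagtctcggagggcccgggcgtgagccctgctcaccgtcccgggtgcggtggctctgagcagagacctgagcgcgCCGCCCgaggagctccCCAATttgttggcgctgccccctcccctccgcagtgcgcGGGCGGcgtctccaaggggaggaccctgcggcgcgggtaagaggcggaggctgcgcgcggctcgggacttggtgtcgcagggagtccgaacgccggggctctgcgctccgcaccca
The Col4a1 window held 2 matches to the GC box and 2 to the CCAAT box, and the Col4a2 window held 2 to the GC box and 1 to the CCAAT box. Neither held the TATA box letters. Col4a3 and Col4a4, also neighbours on opposite strands, have starts 413 bases apart and share 88 bases of their windows. By these starts the genes of each pair run away from each other, so the shared bases belong to the windows and not to both genes. The counts used another build. There, without strand information, reads in any stretch annotated to both genes could not be told apart, and no label gives the strand setting of the counting.

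**Figure D2:**
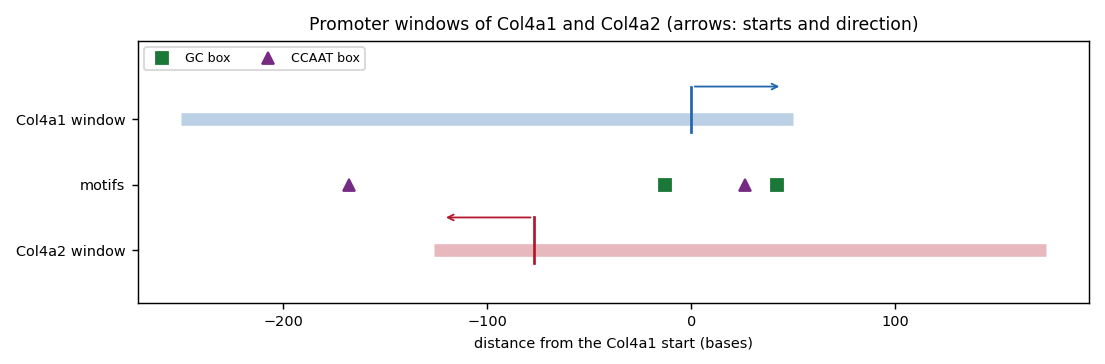
Map of the promoter windows of Col4a1 and Col4a2 by distance in bases from the annotated Col4a1 start, with the transcription starts and the matches to the GC box and the CCAAT box. The windows overlap over 176 bases and the starts lie 77 bases apart.

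Among fibrillar chains, Col5a1 and Col5a2 of type 5 differed in every comparison, while the type 1 chains passed in none. Type 5 collagen lies inside fibrils and is known to limit their width. Of 10 tested fibrillar chains, Col5a1, Col5a2, Col27a1, Col2a1 and Col3a1 rose in MSC and in rTMS_MSC against OGDR, and the other 5 did not pass in either. Col3a1 was over the filter level in 0 OGDR libraries and entered the test through the groups where it was high. Col2a1 was over it in 3 OGDR libraries. The class median, which includes them and the low Col1a2 and Col11a1, was 0.46 in MSC and 0.24 in rTMS_MSC over OGDR. In rTMS_MSC against MSC, Col5a1 and Col5a2 fell and 8 did not pass, with a class median of -0.10.

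Col5a1, the main type 5 chain, had 241, 239.7, 213 and 242 CPM in rTMS_MSC, 298, 279, 295 and 244 CPM in MSC and 174, 167, 165 and 155 CPM in OGDR. The 3 groups did not overlap, with MSC highest and OGDR lowest. Its log2 fold change was 0.75 ± 0.0652, adjusted p = 2.70e-08 for MSC over OGDR and 0.50 ± 0.0651, adjusted p = 6.52e-06 for rTMS_MSC over OGDR. It fell by 16.1% in rTMS_MSC against MSC (-0.25 ± 0.0647 log2, adjusted p = 0.0121). That fall did not pass without MSC replicate 1 (adjusted p = 0.0565), without MSC replicate 3 (adjusted p = 0.0574) or without replicate 3 of both groups (-0.18, adjusted p = 0.0877).
Col5a2, its partner, had 884, 834, 723 and 885 CPM in rTMS_MSC, 947, 945, 1025 and 946 CPM in MSC and 699, 746, 756 and 748 CPM in OGDR. MSC lay above both other groups, and rTMS_MSC overlapped with OGDR through rTMS_MSC replicate 3. The log2 fold change was 0.39 ± 0.0587, adjusted p = 4.66e-05 for MSC over OGDR and 0.17 ± 0.0587, adjusted p = 0.0285 for rTMS_MSC over OGDR. The rTMS_MSC over OGDR call ended without any 1 of OGDR replicates 1 and 4 or rTMS_MSC replicates 1, 2 and 4 (adjusted p = 0.0530 to 0.0931). In rTMS_MSC against MSC it fell by 13.9% (-0.22 ± 0.0586 log2, adjusted p = 0.0166), and this did not pass without MSC replicate 3 (adjusted p = 0.0774) or without replicate 3 of both groups (-0.12, adjusted p = 0.129).
Col5a3, the third type 5 chain, averaged 377 ± 40.9 CPM in rTMS_MSC, 397 ± 27.5 CPM in MSC and 368 ± 20.2 CPM in OGDR (SD, n = 4 each), and its groups overlapped in every comparison.

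Col27a1, a fibrillar chain of cartilage, had 59.3, 54.4, 38.01 and 42.02 CPM in rTMS_MSC, 54.6, 45.7, 49.9 and 38.9 CPM in MSC and 34.01, 35.05, 33.4 and 32.3 CPM in OGDR. Its OGDR libraries lay below all others, and it rose by 0.49 ± 0.1201 log2, adjusted p = 0.00560 in MSC over OGDR and by 0.52 ± 0.12 log2, adjusted p = 0.00236 in rTMS_MSC over OGDR.
Col2a1, the main cartilage collagen, had low counts, at 2.24, 2.74, 2.703 and 1.81 CPM in rTMS_MSC, 1.46, 2.93, 4.33 and 1.65 CPM in MSC and 0.682, 0.641, 1.83 and 0.416 CPM in OGDR. OGDR replicate 3 lay inside the ranges of MSC and of rTMS_MSC. It rose by 1.52 ± 0.404 log2, adjusted p = 0.00981 in MSC over OGDR and by 1.39 ± 0.406 log2, adjusted p = 0.0124 in rTMS_MSC over OGDR, calls that ended without MSC replicate 3 (adjusted p = 0.0574) and without OGDR replicate 4 (adjusted p = 0.0509), each for its own comparison.

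Type 1 and type 3 collagens are the usual bulk of connective tissue, and here they had few counts. Col1a1 had 6.42, 7.58, 4.51 and 5.27 CPM in rTMS_MSC, 6.14, 4.62, 4.87 and 5.69 CPM in MSC and 6.09, 5.37, 4.098 and 4.68 CPM in OGDR, with overlap in all comparisons. Col1a2, whose chain joins Col1a1 in type 1 collagen, had 0.299, 0.737, 0.371 and 0.1003 CPM in rTMS_MSC, 0.453, 0.513, 0.6497 and 0.584 CPM in MSC and 0.341, 0.444, 0.482 and 0.364 CPM in OGDR. Neither passed in any comparison, with adjusted p from 0.351 to 0.877. Col3a1, the collagen of reticular fibres, had 1.89, 1.42, 0.371 and 0.602 CPM in rTMS_MSC, 0.856, 0.7698, 0.704 and 1.28 CPM in MSC and 0.3898, 0.394, 0.338 and 0.156 CPM in OGDR. MSC did not overlap with OGDR, while 1 rTMS_MSC library lay inside the OGDR range. It rose by 1.47 ± 0.508 log2, adjusted p = 0.0459 in MSC over OGDR and by 1.72 ± 0.498 log2, adjusted p = 0.0119 in rTMS_MSC over OGDR. The MSC call ended without any 1 of the 8 compared libraries or rTMS_MSC replicate 2 (adjusted p = 0.0550 to 0.132), and the rTMS_MSC call ended without rTMS_MSC replicate 1 (adjusted p = 0.0673). Col11a1 and Col11a2, chains of the cartilage type that resembles type 5, are given by their means. Col11a1 averaged 0.514 ± 0.149 CPM in rTMS_MSC, 0.93 ± 0.495 CPM in MSC and 0.429 ± 0.1999 CPM in OGDR (SD, n = 4 each). Col11a2 averaged 15.5 ± 1.62 CPM in rTMS_MSC, 15.8 ± 1.86 CPM in MSC and 18.2 ± 2.73 CPM in OGDR. Both overlapped in every comparison, and Col11a1 passed in MSC over OGDR only without MSC replicate 4 (adjusted p = 0.0422). Col24a1 had 13 counts in all.

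The other chains moved in both directions. Of 15 tested, 5 rose and 4 fell in MSC against OGDR, 5 rose and 3 fell in rTMS_MSC against OGDR, and 2 fell in rTMS_MSC against MSC. The rises in rTMS_MSC against OGDR include Col9a1, which entered the test through the groups where it was high. The class median log2 fold change was 0.40 in MSC over OGDR, 0.22 in rTMS_MSC over OGDR and 0.01 in rTMS_MSC over MSC.

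Of the chains that coat fibrils, Col12a1 is found where tissue bears load. It had 227, 243, 204 and 265 CPM in rTMS_MSC, 327, 305, 371 and 303 CPM in MSC and 179, 183, 212 and 192 CPM in OGDR. MSC stood above both other groups, and the lowest rTMS_MSC library fell inside the OGDR range. Its log2 fold change was 0.77 ± 0.0785, adjusted p = 2.84e-07 for MSC over OGDR and 0.29 ± 0.0784, adjusted p = 0.00713 for rTMS_MSC over OGDR. It fell by 28.1% in rTMS_MSC against MSC (-0.48 ± 0.07805 log2, adjusted p = 0.00125), and also without replicate 3 of both groups (-0.35, adjusted p = 0.00192).
Col16a1, a minor fibril-associated chain, had 150.1, 141, 150.2 and 132 CPM in rTMS_MSC, 144, 148, 137 and 129.6 CPM in MSC and 93.4, 94.9, 102 and 90.5 CPM in OGDR. The OGDR libraries lay below all others, and the groups with stem cells overlapped. It rose by 0.55 ± 0.0613 log2, adjusted p = 8.77e-07 in MSC over OGDR and by 0.59 ± 0.0613 log2, adjusted p = 3.13e-07 in rTMS_MSC over OGDR.
The type 9 chains bind the surface of cartilage fibrils, and they did not move as 1 group. Col9a3 had 74.9, 77.2, 78.3 and 61.5 CPM in rTMS_MSC, 62.5, 68.6, 69.1 and 64.3 CPM in MSC and 83.1, 89.1, 86.7 and 81.5 CPM in OGDR. Its OGDR libraries were the highest, and it fell by 0.36 ± 0.0734 log2, adjusted p = 0.00105 in MSC over OGDR and fell by 0.22 ± 0.0732 log2, adjusted p = 0.0248 in rTMS_MSC over OGDR. The call in rTMS_MSC over OGDR ended without OGDR replicate 2, OGDR replicate 3 or rTMS_MSC replicate 4 (adjusted p = 0.0621 to 0.0837), and in rTMS_MSC over MSC it rose without rTMS_MSC replicate 4 (adjusted p = 0.0228), against adjusted p = 0.179 with it. Col9a2 had 2.09, 2.47, 3.29 and 1.76 CPM in rTMS_MSC, 1.66, 1.64, 2.65 and 1.59 CPM in MSC and 3.703, 3.5, 3.47 and 3.27 CPM in OGDR. It fell by 0.89 ± 0.239 log2, adjusted p = 0.0107 in MSC over OGDR, and in rTMS_MSC over OGDR, where the groups overlapped, it was -0.54 ± 0.233 log2, adjusted p = 0.0833. That value passed by limma voom (adjusted p = 0.0231), without rTMS_MSC replicate 3 (adjusted p = 0.0330) and without replicate 3 of MSC and of rTMS_MSC (-0.73, adjusted p = 0.0262). Col9a1 averaged 1.05 ± 0.111 CPM in rTMS_MSC, 0.936 ± 0.4804 CPM in MSC and 0.409 ± 0.245 CPM in OGDR (SD, n = 4 each) and rose in rTMS_MSC over OGDR (1.35 ± 0.469 log2, adjusted p = 0.0327), a call that ended without any 1 of 7 libraries (OGDR replicates 2 to 4 and each of rTMS_MSC; adjusted p = 0.0520 to 0.109). Without replicate 3 of MSC and of rTMS_MSC it was 1.35 log2 (adjusted p = 0.0510). In MSC over OGDR Col9a1 was 1.19 ± 0.475 log2, adjusted p = 0.0867, and it passed without MSC replicate 4 (adjusted p = 0.0206) and without OGDR replicate 1 (adjusted p = 0.0410). Col22a1, a chain of tissue junctions, averaged 6.598 ± 0.646 CPM in rTMS_MSC, 8.46 ± 0.692 CPM in MSC and 6.8 ± 0.903 CPM in OGDR, with -0.36 ± 0.137 log2, adjusted p = 0.0712 for rTMS_MSC over MSC, which passed by limma voom (adjusted p = 0.0317). Col14a1 averaged 2.02 ± 0.463 CPM in rTMS_MSC, 2.18 ± 0.364 CPM in MSC and 2.71 ± 0.428 CPM in OGDR. Col20a1 averaged 2.72 ± 1.17 CPM in rTMS_MSC, 3.38 ± 0.839 CPM in MSC and 2.56 ± 0.302 CPM in OGDR. Neither passed, and both overlapped in every comparison. Col19a1 had 1 count in all.

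Col8a1, a short-chain network collagen of vessel walls and the cornea, also fell with stimulation. It had 67.2, 63.98, 58.7 and 74.3 CPM in rTMS_MSC, 85.7, 79.2, 112 and 81.8 CPM in MSC and 54.8, 54.6, 60.03 and 57.7 CPM in OGDR. All MSC libraries lay above all rTMS_MSC and OGDR libraries, and rTMS_MSC overlapped with OGDR. Its log2 fold change was 0.66 ± 0.0947, adjusted p = 2.66e-05 for MSC over OGDR and 0.22 ± 0.0951, adjusted p = 0.0854 for rTMS_MSC over OGDR. That last value passed without replicate 3 of MSC and of rTMS_MSC (0.27, adjusted p = 0.00328), by limma voom (adjusted p = 0.0354), in the fit of only the 8 compared libraries (adjusted p = 0.0462), without rTMS_MSC replicate 3 (adjusted p = 0.0274) and without MSC replicate 3 (adjusted p = 0.0284). It fell by 26.3% in rTMS_MSC against MSC (-0.44 ± 0.0942 log2, adjusted p = 0.00483), and without replicate 3 of both groups the value was -0.26 (adjusted p = 0.0334). Col10a1, the related chain of hypertrophic cartilage, averaged 0.754 ± 0.211 CPM in rTMS_MSC, 0.607 ± 0.312 CPM in MSC and 0.315 ± 0.262 CPM in OGDR (SD, n = 4 each) and did not pass by edgeR. For rTMS_MSC over OGDR it was 1.26 ± 0.541 log2, adjusted p = 0.0809, which passed by limma voom (adjusted p = 0.0236), with the replicate block (adjusted p = 0.0437) and without OGDR replicate 4 (adjusted p = 0.0240). Col10a1 was over the filter level in 4 libraries of rTMS_MSC and 1 of OGDR, so it entered the test through the groups where it was high. Col8a2 had 13 counts in all.

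Col7a1, the chain of anchoring fibrils under the skin's basement membrane, had the largest rise among the members over 1 CPM in every OGDR library. It had 12.4, 8.64, 11.9 and 8.98 CPM in rTMS_MSC, 8.71, 8.01, 7.96 and 7.17 CPM in MSC and 4.04, 2.12, 1.69 and 3.896 CPM in OGDR. The OGDR libraries lay below all others, and rTMS_MSC overlapped with MSC. The log2 fold change was 1.44 ± 0.219, adjusted p = 5.17e-05 for MSC over OGDR, a fold of 2.72, and 1.84 ± 0.216, adjusted p = 1.82e-06 for rTMS_MSC over OGDR, a fold of 3.58. In rTMS_MSC over MSC it was 0.40 ± 0.198, adjusted p = 0.163.

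The basement membrane chains Col15a1 and Col18a1, whose ends can be cut to anti-angiogenic fragments such as endostatin, moved in opposite directions against OGDR. Col18a1 had 14.99, 21.3, 22.1 and 17.7 CPM in rTMS_MSC, 18.98, 20.4, 20.2 and 15.9 CPM in MSC and 10.7, 13.1, 13.7 and 11.01 CPM in OGDR. It rose by 0.64 ± 0.1298 log2, adjusted p = 0.00119 in MSC over OGDR and by 0.65 ± 0.1297 log2, adjusted p = 0.000748 in rTMS_MSC over OGDR, with no overlap. Col15a1 had 108, 120.1, 108 and 121 CPM in rTMS_MSC, 124, 126, 117 and 109.9 CPM in MSC and 133, 155, 144 and 141 CPM in OGDR. Its OGDR libraries were the highest, and it fell by 0.27 ± 0.06399 log2, adjusted p = 0.00482 in MSC over OGDR and fell by 0.32 ± 0.06405 log2, adjusted p = 0.000647 in rTMS_MSC over OGDR. Col17a1, a membrane-spanning chain of hemidesmosomes, had 5.43, 5.27, 5.14 and 4.91 CPM in rTMS_MSC, 6.395, 5.696, 5.74 and 7.17 CPM in MSC and 8.23, 7.295, 10.4 and 8.73 CPM in OGDR. The groups did not overlap in any comparison, with rTMS_MSC lowest. Its log2 fold change was -0.47 ± 0.141, adjusted p = 0.0212 for MSC over OGDR, -0.74 ± 0.142, adjusted p = 0.000533 for rTMS_MSC over OGDR and -0.27 ± 0.146, adjusted p = 0.201 for rTMS_MSC over MSC. The MSC call ended without OGDR replicate 3, MSC replicate 2 or MSC replicate 3 (adjusted p = 0.0600 to 0.0924). The other membrane-spanning chains, Col13a1, Col23a1 and Col25a1, had 62, 15 and 37 counts in all. Col28a1, a beaded chain related to type 6 that is known from peripheral nerve, had 0.647, 0.579, 0.05301 and 0.602 CPM in rTMS_MSC, 0.201, 0.411, 0.379 and 0.584 CPM in MSC and 0.0487, 0.6901, 0.434 and 0.208 CPM in OGDR, and it overlapped in every comparison.

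**Figure D3:**
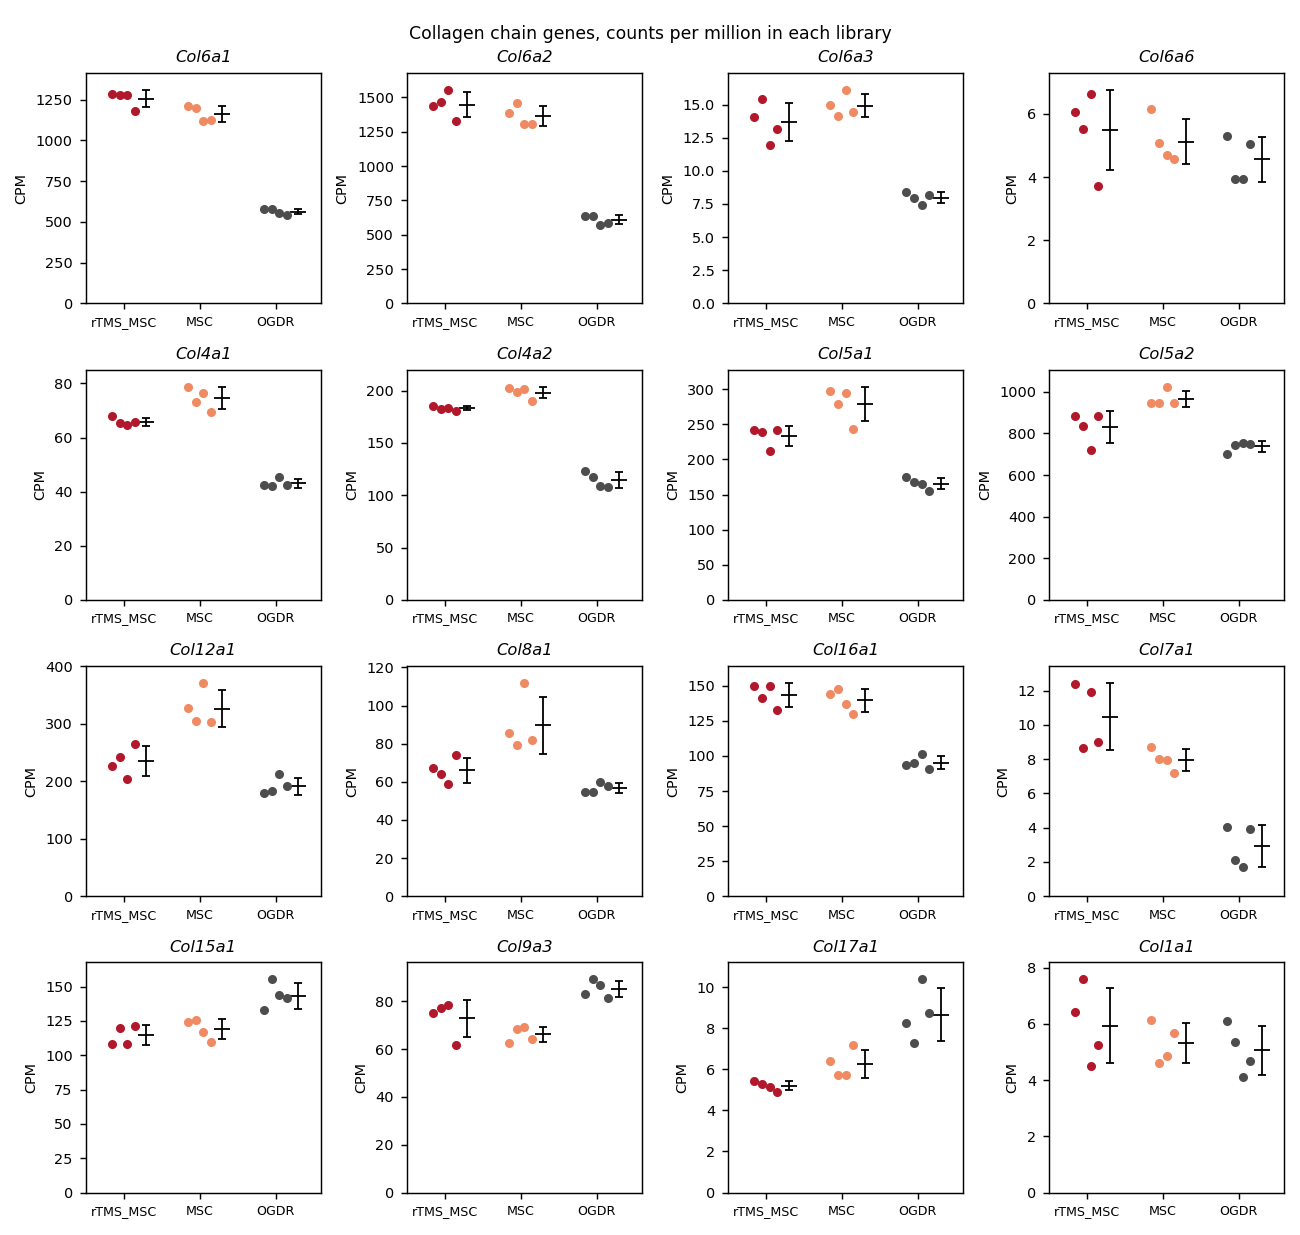
Level in CPM (TMM-scaled) of 16 collagen chain genes in each library, by group, with the mean and SD in black. Col6a1, Col6a2, Col4a1 and Col4a2 lie lowest in OGDR in all 4 libraries, Col12a1, Col8a1, Col5a1 and Col5a2 lie highest in MSC, and Col15a1 and Col9a3 lie highest in OGDR.

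Summed over the class, type 6 chains took a larger share of collagen counts in both groups with stem cells than in OGDR. These sums weight each gene by its counts, which also depend on transcript length, and no test was run on them. Type 6 chains summed to 2721 ± 139 CPM in rTMS_MSC, 2548 ± 117 CPM in MSC and 1184 ± 49.4 CPM in OGDR (SD, n = 4 each). Type 4 chains summed to 249 ± 3.04 CPM in rTMS_MSC, 273 ± 9.49 CPM in MSC and 158 ± 7.03 CPM in OGDR. Fibrillar chains summed to 1516 ± 124 CPM in rTMS_MSC, 1715 ± 78.3 CPM in MSC and 1329.9 ± 19.7 CPM in OGDR, and the other chains to 683 ± 21.8 CPM in rTMS_MSC, 792 ± 50.5 CPM in MSC and 613 ± 28 CPM in OGDR. All collagen chains together made up 0.511% ± 0.0214 of gene counts in rTMS_MSC, 0.536% ± 0.0197 in MSC and 0.3301% ± 0.00475 in OGDR.
As a share of collagen counts, type 6 chains held 52.6 ± 2.35% in rTMS_MSC, 47.8 ± 1.63% in MSC and 36.04 ± 1.14% in OGDR. The fibrillar share was 29.3 ± 2.06% in rTMS_MSC, 32.2 ± 0.8597% in MSC and 40.5 ± 0.444% in OGDR, so its order was the reverse. The type 4 share was 4.82 ± 0.101% in rTMS_MSC, 5.12 ± 0.0744% in MSC and 4.802 ± 0.1601% in OGDR. The other chains held 13.2 ± 0.575% in rTMS_MSC, 14.9 ± 0.735% in MSC and 18.7 ± 0.8796% in OGDR.

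**Figure D4:**
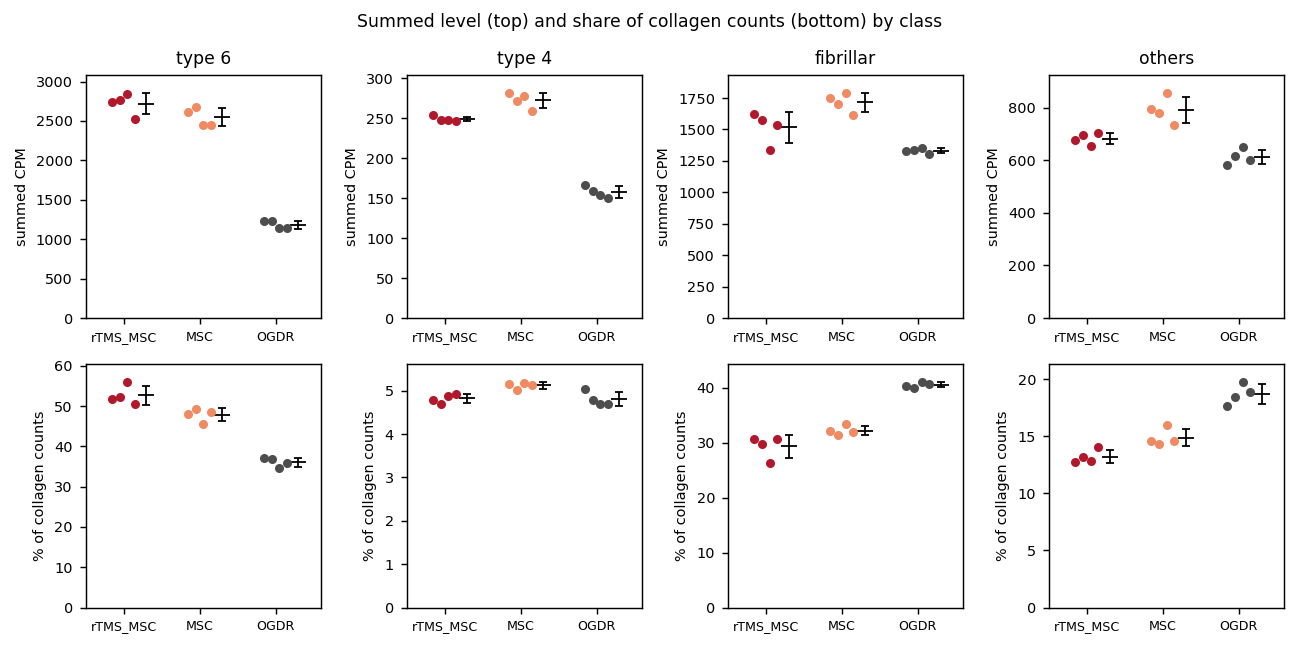
Summed CPM of the 4 classes of collagen chain genes (top) and their share of all collagen counts in percent (bottom) in each library, by group. The type 6 sum averages 2721 CPM in rTMS_MSC, 2548 CPM in MSC and 1184 CPM in OGDR, and the fibrillar share averages 29.3% in rTMS_MSC, 32.2% in MSC and 40.5% in OGDR.

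Chains that share a molecule were set against each other within each library, as log2 ratios of counts with 0.5 added. They are not per length, so only differences between groups can be read. The ratio of Col6a2 to Col6a1 was 0.20 ± 0.0536 in rTMS_MSC, 0.23 ± 0.0374 in MSC and 0.11 ± 0.0424 in OGDR (SD, n = 4 each). For Col4a2 to Col4a1 it was 1.48 ± 0.02697 in rTMS_MSC, 1.41 ± 0.0414 in MSC and 1.41 ± 0.1305 in OGDR. The means of the type 4 pair differed by at most 0.07 between groups, and those of Col6a2 to Col6a1 differed by 0.12 between MSC and OGDR with no overlap. Between rTMS_MSC and OGDR the means of Col6a2 to Col6a1 differed by 0.096, also with no overlap. The ratio of Col6a3 to Col6a1 was -6.52 ± 0.152 in rTMS_MSC, -6.28 ± 0.124 in MSC and -6.14 ± 0.0724 in OGDR. This ratio differed by -0.38 in rTMS_MSC over OGDR, with no overlap. For Col5a2 to Col5a1 it was 1.83 ± 0.0535 in rTMS_MSC, 1.79 ± 0.119 in MSC and 2.16 ± 0.112 in OGDR, with both groups with stem cells below OGDR and no overlap. The ratio of Col1a2 to Col1a1 was -4.14 ± 0.947 in rTMS_MSC, -3.22 ± 0.349 in MSC and -3.55 ± 0.425 in OGDR, on few Col1a2 counts. In 15 2-sided exact permutation tests the smallest p that 4 against 4 libraries allow is 0.0286, and 5 tests reached it. Their Benjamini-Hochberg adjusted p was 0.0858 each, so none passed 0.05. With that smallest p over 15 tests, full separation in only a few tests could not have passed, so no conclusion is drawn from this.

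**Figure D5:**
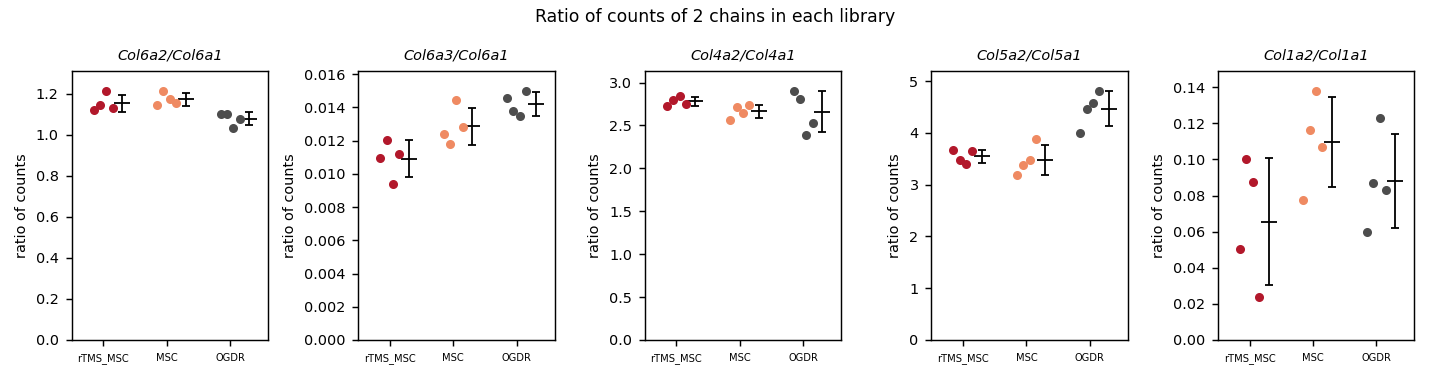
Ratios of counts of partner collagen chains in each library, by group, not corrected for transcript length. They are plain ratios, not on the log2 scale of the text. The Col5a2 to Col5a1 ratio averages 3.55 in rTMS_MSC, 3.48 in MSC and 4.47 in OGDR. The Col4a2 to Col4a1 ratio averages 2.78 in rTMS_MSC, 2.66 in MSC and 2.66 in OGDR.

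Genes that make, process and bind collagen were counted in 7 lists, of which 95 genes were tested. In MSC against OGDR 40 rose and 7 fell, in rTMS_MSC against OGDR 40 rose and 20 fell, and in rTMS_MSC against MSC 3 rose and 19 fell. Over all genes the called shares were 11.6% higher and 8.63% lower in MSC against OGDR, 16.2% higher and 16.2% lower in rTMS_MSC against OGDR, and 7.14% higher and 10.9% lower in rTMS_MSC against MSC. The companion shares were 42.1% higher and 7.37% lower in MSC against OGDR, 42.1% higher and 21.1% lower in rTMS_MSC against OGDR, and 3.16% higher and 20% lower in rTMS_MSC against MSC. Without replicate 3 of MSC and of rTMS_MSC, the count called in rTMS_MSC against MSC was 7, all lower (Ccn2, Fn1, Itga1, Loxl4, Smad3, Tgfbr1 and Thbs1). Pxdn and Hspg2 stand in 2 lists each and are counted once here. The median log2 fold change in MSC over OGDR was 0.14 for folding genes, 0.04 for secretion genes, 0.81 for crosslinking genes, 0.20 for receptors, 0.52 for partners of type 6, 0.30 for basement membrane partners and 0.14 for the TGF-beta axis, beside -0.00212 for all genes. In rTMS_MSC over MSC the list medians lay between -0.14 (basement membrane partners) and 0.07 (folding genes), beside 0.0152 for all genes.

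Folding and modification enzymes act on the chains in the endoplasmic reticulum. Of 20 tested, 5 rose and 1 fell in MSC against OGDR, 9 rose and 2 fell in rTMS_MSC against OGDR, and 1 rose in rTMS_MSC against MSC. P4ha3, a prolyl hydroxylase subunit, averaged 145 ± 5.15 CPM in rTMS_MSC, 136 ± 4.75 CPM in MSC and 102 ± 4.99 CPM in OGDR (SD, n = 4 each) and rose by 0.41 ± 0.0551 log2, adjusted p = 1.20e-05 in MSC over OGDR. Fkbp10, a collagen chaperone, rose by 0.41 ± 0.0529 log2, adjusted p = 6.67e-06, and Colgalt1, which adds galactose to hydroxylysine, by 0.30 ± 0.0526 log2, adjusted p = 0.000226. P4ha1, the sister subunit of P4ha3, averaged 120.3 ± 13.3 CPM in rTMS_MSC, 118 ± 3.803 CPM in MSC and 144 ± 5.94 CPM in OGDR and fell by 0.29 ± 0.0683 log2, adjusted p = 0.00427 in MSC over OGDR. The gene that rose with stimulation was Ppib, a proline isomerase, at 0.28 ± 0.0689 log2, adjusted p = 0.0108 for rTMS_MSC over MSC, and adjusted p = 0.106 without replicate 3 of both groups.

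Secretion and processing genes carry procollagen out and trim its ends. Of 11 tested, 3 rose and 1 fell in MSC against OGDR, 3 rose and 3 fell in rTMS_MSC against OGDR, and 2 fell in rTMS_MSC against MSC. Pcolce, which enhances removal of the procollagen end, averaged 419.7 ± 45.8 CPM in rTMS_MSC, 373 ± 26.5 CPM in MSC and 229 ± 21.1 CPM in OGDR (SD, n = 4 each). It rose by 0.70 ± 0.0759 log2, adjusted p = 6.08e-07 in MSC over OGDR, and Sparc, a collagen-binding matrix protein, by 0.57 ± 0.0564 log2, adjusted p = 1.85e-07. Mia2, an export factor for large cargo, fell by 0.52 ± 0.0864 log2, adjusted p = 0.000139. Sec24d and Sec23a, coat proteins of the vesicles that leave the endoplasmic reticulum, were -0.32 ± 0.0886 log2, adjusted p = 0.0186 and -0.26 ± 0.07603 log2, adjusted p = 0.0240 in rTMS_MSC over MSC. Both of those calls ended without MSC replicate 1, without MSC replicate 3 and without rTMS_MSC replicate 2, and that of Sec23a also without rTMS_MSC replicate 3 (adjusted p = 0.0571 to 0.117).

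Crosslinking enzymes join secreted chains by covalent bonds, and 5 of the 6 tested rose in MSC against OGDR. Loxl3, a lysyl oxidase, averaged 1846 ± 148 CPM in rTMS_MSC, 1809 ± 92.7 CPM in MSC and 1006 ± 48.5 CPM in OGDR (SD, n = 4 each) and rose by 0.85 ± 0.0572 log2, adjusted p = 6.54e-10. Loxl1, a lysyl oxidase of elastic fibres, rose by 0.77 ± 0.0922 log2, adjusted p = 2.58e-06. Pxdn, a peroxidase that forms the sulfilimine bonds of the type 4 network, had 137, 137, 135 and 138 CPM in rTMS_MSC, 163, 154, 165 and 149.6 CPM in MSC and 78.1, 75.7, 83.9 and 70.1 CPM in OGDR. The 3 groups did not overlap, with MSC highest and OGDR lowest. It rose by 1.04 ± 0.0595 log2, adjusted p = 4.94e-11 in MSC over OGDR and fell by 0.21 ± 0.0583 log2, adjusted p = 0.0192 in rTMS_MSC over MSC. That fall ended without MSC replicate 1 or MSC replicate 3 (adjusted p = 0.0705 to 0.0822). Loxl4, another lysyl oxidase, rose by 0.84 ± 0.1699 log2, adjusted p = 0.00103 in MSC over OGDR and fell by 0.75 ± 0.1695 log2, adjusted p = 0.00645 in rTMS_MSC over MSC. In rTMS_MSC over OGDR 4 of the 6 rose.

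Collagen receptors showed 5 of 9 tested genes higher in MSC than in OGDR, while in rTMS_MSC 5 were higher and 3 lower than in OGDR. Itga10, an integrin chain that binds cartilage collagens, had 33.5, 31.4, 28.6 and 35.2 CPM in rTMS_MSC, 34.04, 34.4, 31.1 and 29.4 CPM in MSC and 10.04, 10.3, 8.29 and 9.14 CPM in OGDR. It rose by 1.77 ± 0.0993 log2, adjusted p = 3.37e-11 in MSC over OGDR and by 1.77 ± 0.0993 log2, adjusted p = 2.97e-11 in rTMS_MSC over OGDR, with OGDR far below. Ddr1, a receptor kinase for collagen, rose by 0.64 ± 0.0558 log2, adjusted p = 2.73e-08 in MSC over OGDR, and Mrc2, which takes collagen up for breakdown, by 0.68 ± 0.0549 log2, adjusted p = 1.03e-08. With stimulation 2 receptors fell against MSC. Itga1, an integrin chain with preference for type 4 collagen, averaged 37.6 ± 8.098 CPM in rTMS_MSC, 67.2 ± 18.6 CPM in MSC and 59.4 ± 13.6 CPM in OGDR (SD, n = 4 each), at -0.84 ± 0.174 log2, adjusted p = 0.00413. Ddr2, the receptor kinase for fibrillar collagen, was at -0.30 ± 0.102 log2, adjusted p = 0.0486, a call that ended without any 1 of 7 libraries (OGDR replicates 1 and 4, MSC replicates 1, 3 and 4, rTMS_MSC replicates 2 and 3; adjusted p = 0.0518 to 0.183).

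Partners of type 6 collagen rose in 4 of 10 tested cases and fell in 1 in MSC against OGDR, and 4 rose and 2 fell in rTMS_MSC against OGDR. Bgn, a small proteoglycan bound to type 6 microfilaments, averaged 875 ± 49.6 CPM in rTMS_MSC, 858 ± 26.99 CPM in MSC and 526 ± 21.1 CPM in OGDR (SD, n = 4 each) and rose by 0.71 ± 0.0507 log2, adjusted p = 1.65e-09 in MSC over OGDR. Tgfbi, which links type 6 collagen to other matrix, rose by 1.03 ± 0.0997 log2, adjusted p = 1.31e-07. Cspg4, a cell-surface receptor for type 6 collagen, rose by 0.53 ± 0.0462 log2, adjusted p = 3.11e-08. In rTMS_MSC against MSC 1 rose and 3 fell, among them Fn1, fibronectin, at -0.25 ± 0.0496 log2, adjusted p = 0.00327. Cspg4 fell by 0.19 ± 0.04599 log2, adjusted p = 0.0104, and without MSC replicate 3 it did not pass (adjusted p = 0.0518).

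Basement membrane partners, which build the sheet with type 4 collagen, rose in 10 of 18 tested cases and fell in 1 in MSC against OGDR. In rTMS_MSC against OGDR 8 rose and 2 fell. Lamb2, a laminin chain of nerve and muscle, averaged 289.9 ± 21.4 CPM in rTMS_MSC, 280.3 ± 14.2 CPM in MSC and 146 ± 2.93 CPM in OGDR (SD, n = 4 each) and rose by 0.94 ± 0.05805 log2, adjusted p = 1.49e-10 in MSC over OGDR. Hspg2, the proteoglycan perlecan, rose by 0.93 ± 0.0734 log2, adjusted p = 6.32e-09. Lama3, a laminin chain of epithelia, averaged 7.44 ± 1.38 CPM in rTMS_MSC, 8.85 ± 0.638 CPM in MSC and 22.2 ± 1.404 CPM in OGDR and fell by 1.32 ± 0.122 log2, adjusted p = 6.93e-08. In rTMS_MSC against MSC 6 fell and 1 rose, with Agrn, the proteoglycan agrin, at -0.22 ± 0.0531 log2, adjusted p = 0.00891 (adjusted p = 0.0605 without replicate 3 of both groups), and Lamc1, the common laminin gamma chain, at -0.23 ± 0.0587 log2, adjusted p = 0.0115. The Lamc1 call ended without MSC replicate 3 (adjusted p = 0.0515), and Hspg2, at -0.25 ± 0.07204 log2, adjusted p = 0.0225, ended without MSC replicates 1 or 3 or rTMS_MSC replicate 1 (adjusted p = 0.0594 to 0.0926).

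The transforming growth factor beta (TGF-beta) axis holds ligands, receptors, signal carriers and targets of a pathway known to raise collagen transcription in fibroblasts. Of 23 tested genes, 10 rose and 3 fell in MSC against OGDR, 9 rose and 8 fell in rTMS_MSC against OGDR, and 6 fell in rTMS_MSC against MSC, where 1 was higher at an unadjusted p under 0.05 and 1 by DESeq2 and by limma voom. Ccn2, a matricellular target, had 1913, 1790.0, 1775 and 1777 CPM in rTMS_MSC, 2091, 2169, 2199 and 2261 CPM in MSC and 708, 817, 719 and 879 CPM in OGDR. The 3 groups did not overlap, with MSC highest and OGDR lowest. It rose by 1.48 ± 0.061 log2, adjusted p = 2.69e-13 in MSC over OGDR and fell by 0.27 ± 0.0597 log2, adjusted p = 0.00621 in rTMS_MSC over MSC. Lrrc32, which holds latent TGF-beta on the cell surface, averaged 9.04 ± 2.15 CPM in rTMS_MSC, 8.36 ± 0.901 CPM in MSC and 1.13 ± 0.554 CPM in OGDR (SD, n = 4 each) and rose by 2.87 ± 0.252 log2, adjusted p = 3.41e-08 in MSC over OGDR. Thbs1, a matrix activator of the ligand, averaged 692 ± 72.4 CPM in rTMS_MSC, 908 ± 68.1 CPM in MSC and 254 ± 9.99 CPM in OGDR and rose by 1.84 ± 0.0696 log2, adjusted p = 6.68e-14 in MSC over OGDR, and fell by 0.39 ± 0.0673 log2, adjusted p = 0.00155 in rTMS_MSC over MSC. Tgfbr1, a receptor, and Smad3, a signal carrier, were -0.48 ± 0.0974 log2, adjusted p = 0.00370 and -0.58 ± 0.105 log2, adjusted p = 0.00214 in rTMS_MSC over MSC. The gene that was higher there was the ligand Tgfb1, at 0.25 ± 0.0879 log2, adjusted p = 0.0510 by edgeR. It passed by DESeq2 (adjusted p = 0.0373) and by limma voom (adjusted p = 0.0404). In rTMS_MSC over OGDR Tgfb1 rose by 0.43 ± 0.0881 log2, adjusted p = 0.000924. Whether the axis had a part in the collagen values was not tested.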

How the data were processed

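Per the labels' protocols, poly(A) RNA was enriched on oligo(dT) beads and reverse transcribed from random primers. Per the submitters' processing notes, HISAT2 2.1.0, HTSeq 0.11.2, DESeq2 1.40.1 and the build mRatBN7.2 were used, and they name no strand setting. The authors deposited 1 table of raw counts per gene, and reads on no feature (51.7% to 52.7% of each library) and the other summary lines were left out. The series text speaks of 20 samples and a microarray, whereas the labels give 12 sequencing libraries.

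With R 4.3.3 and edgeR 4.0.16, genes were kept by filterByExpr (minimum count 10, minimum total 15), TMM factors scaled the library sizes, and all 12 libraries entered 1 quasi-likelihood fit with group means. Tests were 2-sided, with Benjamini-Hochberg adjustment over 13692 genes and a threshold of 0.05. CPM used TMM-scaled library sizes. At 18246250 to 20471838 counts per library, 1 CPM is about 20 counts, and intervals and limits cover counting error only. Chain ratios (0.5 added to each count) used exact permutation tests. Alternatives were other scalings and filters, limma voom (limma 3.58.1), DESeq2 1.42.0, a threshold of 0.01, the replicate block, leaving out libraries and fits without the group not compared. The members and all gene lists were chosen with earlier results of these data known. The genes named were members with adjusted p under 0.05 in any comparison and at least 1 CPM on average, a panel of 12 members, and up to 4 genes with the smallest p of each companion list and comparison, with values per library for the first 2 kinds. Tgfb1 was named besides these. The remaining members are given by their means or counts. A few companion genes and markers are not reported here. Promoter windows came from RefSeq (GRCr8). No genome sequence or transcript lengths were used here.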

Additional observations from a re-analysis of the deposited data

Results flagged for a closer look

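In 66 groups of 4 libraries (22 members in 3 groups), the gap of the highest or lowest library to its nearest neighbour was divided by the range, and 6 exceeded Dixon's critical value at the 95% level. Chance alone flags about 1 in 20 groups. Col6a1 in rTMS_MSC had a gap ratio of 0.919, with replicate 4 at 1177 CPM and the others at 1277 to 1286 CPM. Col5a1 in rTMS_MSC had 0.912, with replicate 3 at 213 CPM and the others at 239.7 to 242 CPM. Col5a2 had 0.978 in MSC, with replicate 3 at 1025 CPM and the others at 945 to 947 CPM. In OGDR Col5a2 had 0.834, with replicate 1 at 699 CPM and the others at 746 to 756 CPM. Col9a2 in MSC had 0.936, with replicate 3 at 2.65 CPM and the others at 1.59 to 1.66 CPM. Col28a1 in rTMS_MSC had 0.885, with replicate 3 at 0.0530 CPM and the others at 0.579 to 0.647 CPM. Of the 6, 4 were a replicate 3 of MSC or rTMS_MSC.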

How the results depend on the processing

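The number of collagen chain genes called in rTMS_MSC against MSC was 4, and it was 2 at an adjusted p under 0.01 and 2 without MSC replicate 3 and rTMS_MSC replicate 3 together. Leaving out 1 library gave 2 to 6, with 2 without MSC replicate 3. That fit also called fewer of all genes, 282 higher and 724 lower of 13847, against 977 and 1498 of 13692. The cause was not tested. The companion count of 22 in that comparison was 8 at an adjusted p under 0.01, 7 without both replicates 3 and 9 to 24 with 1 library left out. Against OGDR the collagen counts of 19 for MSC and 18 for rTMS_MSC ranged from 16 to 20 for MSC and from 15 to 19 for rTMS_MSC with 1 library left out. With the replicate number as a block, the counts were 4 collagen and 19 companion genes for rTMS_MSC over MSC, 19 and 46 for MSC over OGDR, and 18 and 61 for rTMS_MSC over OGDR, and the Col5a2 call in rTMS_MSC over OGDR was lost (adjusted p = 0.0517). Same-numbered libraries did not deviate together (r = -0.205 to 0.128 over genes, 1 of 12 pairs over 0.1), so the numbers were not taken as pairs. Of the members' fold changes under the alternatives, 1932 stayed on the same side of the threshold, 20 passed newly and 37 no longer passed. In 79 of 4911 comparisons with the main value the sign differed, none of them called on either side. Scaling moved the median of all genes to at most 0.0303 log2. Genes near 1 CPM have about 20 counts per library, which limits Col1a2, Col2a1, Col3a1 and the other members under the filter level.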
